A study of Mus musculus with 10 samples.

Results

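The genes described here are 40 folding factors of the endoplasmic reticulum (ER), namely chaperones, their co-chaperones, protein disulfide isomerases, thiol oxidases and prolyl isomerases. They were taken from the deposited table by gene name, as 38 listed symbols plus every name that starts with Ero1, which added Ero1l and Ero1lb. All 40 were found among the 27665 genes of the table, and all 40 passed the filter on low counts that left 15104 genes for testing. The libraries were made from islets of the pancreas of 10 male mice of the inbred strain C57BL/6J, aged 8 to 10 weeks. The western diet group held 5 mice fed that diet for 4 weeks, and the chow group held 5 mice fed standard chow for the same time. The labels name no altered allele or drug for either group, and each library came from 1 mouse.

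Of the western diet mice, 4 shared cage 4 and 1 came from cage 2, and every chow mouse came from cage 3, so effects of diet and of cage cannot be told apart. Libraries held 16532518 to 23902681 counts, and the insulin gene Ins2, which marks beta cells, took 16.0% to 18.6% of them. Summed over 10 beta cell markers the islets gave 242900 to 277837 CPM (read counts scaled to the size of the library) on western diet and 232250 to 268278 CPM on chow. That sum includes Ins2 and does not show single markers. On western diet edgeR called G6pc2 and Iapp higher, at 0.47 and 0.19 on the log2 scale. It called Slc30a8 and Slc2a2 lower, at -0.27 and -0.54. In whole islets, fewer cells of a type and less RNA per cell cannot be told apart. Acinar cells of the exocrine pancreas are rich in ER and could enter an islet preparation. Their 22 markers summed to between 1138 and 7664 CPM on western diet and between 901 and 3694 CPM on chow. The median sum was lower on western diet, at 1874 CPM, than on chow, at 2392 CPM, and no marker was at 0 in every library. Mice 5 and 4 of western diet cage 4 had 852 and 537 CPM of the acinar gene Cela1. The other western diet mice had 113 to 183 CPM of it, and the chow mice had 93.2 to 335 CPM. Of the 19 acinar markers tested 0 passed the edgeR test and 1, Bhlha15, had an unadjusted p under 0.05, but 16 had a fold change above 0, with a median of 0.38 on the log2 scale. That gene, which encodes a transcription factor of secretory cells, averaged 109 ± 21.2 CPM on western diet and 67.5 ± 21.3 CPM on chow (SD, n = 5 each, edgeR adjusted p = 0.12). Of 10 tested duct markers 3 were lower (Krt19, Krt8 and Muc1), and all 11 summed to between 694 and 810 CPM on western diet and between 858 and 1014 CPM on chow. Among markers of other cells, edgeR called 2 of 10 for beta cells higher and 2 lower, 1 of 6 for alpha cells higher, 0 of 4 for delta and PP cells, 1 of 7 for endothelium lower, 1 of 9 for macrophages lower, 1 of 6 for mesenchyme lower and 0 of 3 for plasma and B cells. Apart from a fit with the acinar markers as a covariate, given below, the part of other cells in the values below was not tested.

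Proteins that enter the secretory pathway fold in the ER. There, HSP70 and HSP90 class chaperones hold unfolded chains, lectin chaperones hold glycoproteins, and disulfide isomerases and oxidases form and rearrange the disulfide bonds that insulin needs. When unfolded protein builds up, the sensors IRE1, PERK and ATF6 start the unfolded protein response, and the transcription factors XBP1 and ATF6 raise many of these genes through promoter elements such as the ER stress response element (ERSE). Beta cells make very large amounts of proinsulin and are known to rely on this machinery.

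The genes were taken by name and not by a search for the ERSE. As the ERSE is already known from genes of this kind, its share among them is a description and not an independent result. Promoter windows from RefSeq (build GRCm38.p6), reaching 250 bases before and 50 bases after a transcription start, were found for 35 of the 40 genes. Erp29, Hyou1, Manf, Sil1 and Tmx3 had none. Both strands were searched for the ERSE, spelled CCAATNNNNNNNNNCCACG, where N is any base. It occurred in 8 of the 35 genes (22.9%), against 19 of the 11253 tested genes with a window (0.169%), these 8 included, and 39 of 32851 single windows in the RefSeq table (0.119%). The 8 genes were Calr, Canx, Creld2, Dnajc3, Ero1lb, Hsp90b1, Hspa5 and Pdia6. The matches are shown in the direction of the motif with 5 flanking bases, and the capitals mark CCAAT and CCACG.
Hspa5: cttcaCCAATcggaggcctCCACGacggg
Hsp90b1, far: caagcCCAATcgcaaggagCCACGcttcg
Hsp90b1, near: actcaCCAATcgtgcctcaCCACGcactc
Canx: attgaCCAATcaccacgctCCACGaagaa
Creld2: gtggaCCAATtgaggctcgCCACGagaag
Dnajc3: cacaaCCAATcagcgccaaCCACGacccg
Ero1lb: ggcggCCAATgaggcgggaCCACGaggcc
Pdia6: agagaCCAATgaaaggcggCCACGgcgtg
Calr: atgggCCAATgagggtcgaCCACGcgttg
The Hspa5 stretch is chr2:34772020-34772048 on the plus strand, and its match lies 47 to 65 bases before the RefSeq start. The deposited table starts Hspa5 farther upstream, so the stretch lies within its gene span there. Hsp90b1 held a match at 194 to 212 bases before its start on the gene's strand (chr10:86705633-86705661, minus strand) and another at 89 to 107 bases on the opposite strand (chr10:86705528-86705556, plus strand). The matches of Calr, Creld2 and Ero1lb also lay on the strand opposite to the gene. A match of letters is a description and not a site of binding.

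The related ERSE-II, spelled ATTGGNCCACG, occurred in Dnajb11 alone among the 35 genes, and in 9 of the 11253 tested genes. It sat 7 to 17 bases after the start, at chr16:22857847-22857867 on the plus strand, with ATTGG and CCACG in capitals.
Dnajb11: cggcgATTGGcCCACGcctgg
The XBP1 site TGACGTGG occurred in Txndc5 and Txndc11, 5.7% of the 35, against 1.04% of the tested genes with a window. RefSeq gives both genes several windows, and 1 window of each matched. Both are shown because both genes were higher on western diet, and the capitals mark the site.
Txndc5: gccgcTGACGTGGcgcta
Txndc11: gtggcTGACGTGGagagt
The Txndc5 stretch is chr13:38528040-38528057 and the Txndc11 stretch chr16:11134622-11134639, both on the minus strand. CCACG by itself is held by every ERSE and ERSE-II, and by every XBP1 site on the opposite strand. It occurred in 26 of the 35 genes (74.3%) and in 51.5% of the tested genes with a window. Pdia5, whose fold increase was the highest of the 40, held CCACG but none of the 3 longer motifs. Its 150 bases before the start (chr16:35490874-35491023, minus strand) are shown as a window without an ERSE, and the capitals mark CCACG as it reads on the opposite strand.
Pdia5: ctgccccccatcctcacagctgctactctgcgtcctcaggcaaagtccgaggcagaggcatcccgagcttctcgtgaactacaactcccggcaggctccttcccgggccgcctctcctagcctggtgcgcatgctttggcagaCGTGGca

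**Figure D1:**
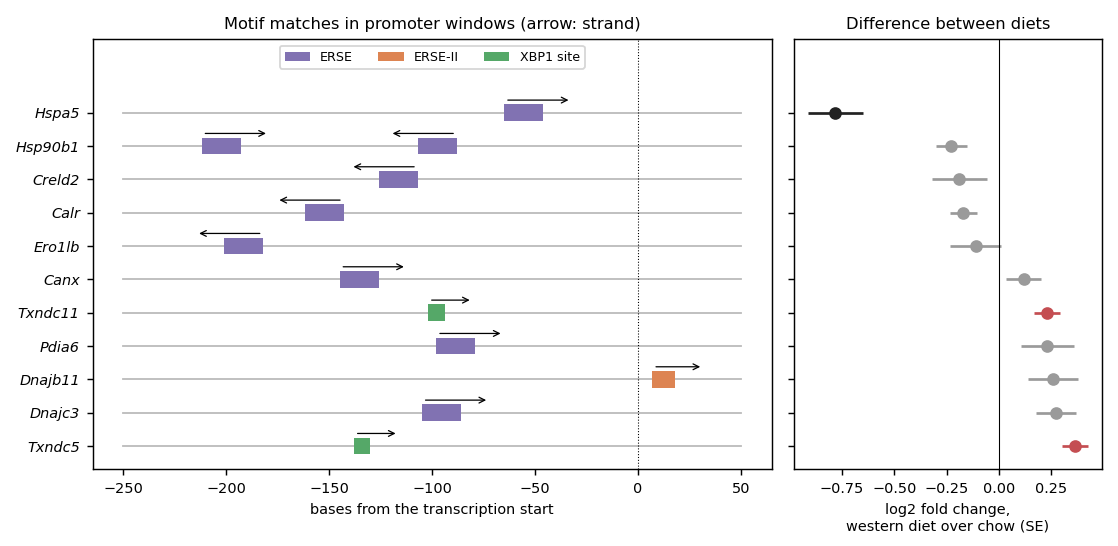
Positions of the 3 motifs in the promoter windows of the 11 genes that hold one, in bases from the transcription start, with arrows for the strand (left), and the log2 fold change of the same genes, western diet over chow, with SE (right). Hspa5 lies at -0.78 with its ERSE 47 to 65 bases before the start, and the genes with a TGACGTGG match, Txndc5 and Txndc11, lie at 0.37 and 0.23.

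A minority of the ER folding factors changed. In islets of the western diet mice, 7 of the 40 rose and 1 fell, and 32 did not pass the test (quasi-likelihood test of edgeR, adjusted by Benjamini-Hochberg over all 15104 genes, threshold 0.05). Over all genes tested, 5.27% were called higher and 5.50% lower. Those that rose were Pdia5, Ppib, Erp29, Txndc5, Creld1, Dnajc10 and Txndc11, by 1.17-fold to 1.44-fold, and the 1 that fell was Hspa5, to 0.581 of the chow level. The median log2 fold change of the 40 was 0.13, with 28 above 0 and 12 below, and the median over all genes was 0.01. In 6 of the 40 every western diet mouse lay above every chow mouse, against 4.44% of all genes, and in 1 every western diet mouse lay below, against 4.42% of all genes. The authors' deposited table, from their own test, has 10 of the 40 higher and 2 lower at an adjusted p under 0.05; it adds Dnajb9, Dnajc3 and Erp44 to the higher genes and Hsp90b1 to the lower.

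The count of higher genes depended on single mice. It was 15 without chow mouse 2, 3 without mouse 4 of western diet cage 4, 4 without mouse 5 of that cage and 4 without chow mouse 1. Over all 15104 genes tested the main fit called 796 higher. That number also moved with the mouse left out, over the range given in the last section. With the acinar markers as a covariate edgeR called 10 higher and 1 lower. The count of lower genes was 2 without chow mouse 4 and 3 without chow mouse 5. Hspa5, Pdia5, Txndc5 and Erp29 were called in the same direction under all 20 alternatives run, Dnajc10 in 17, Txndc11 in 16, Ppib in 13 and Creld1 in 11.

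**Figure D2:**
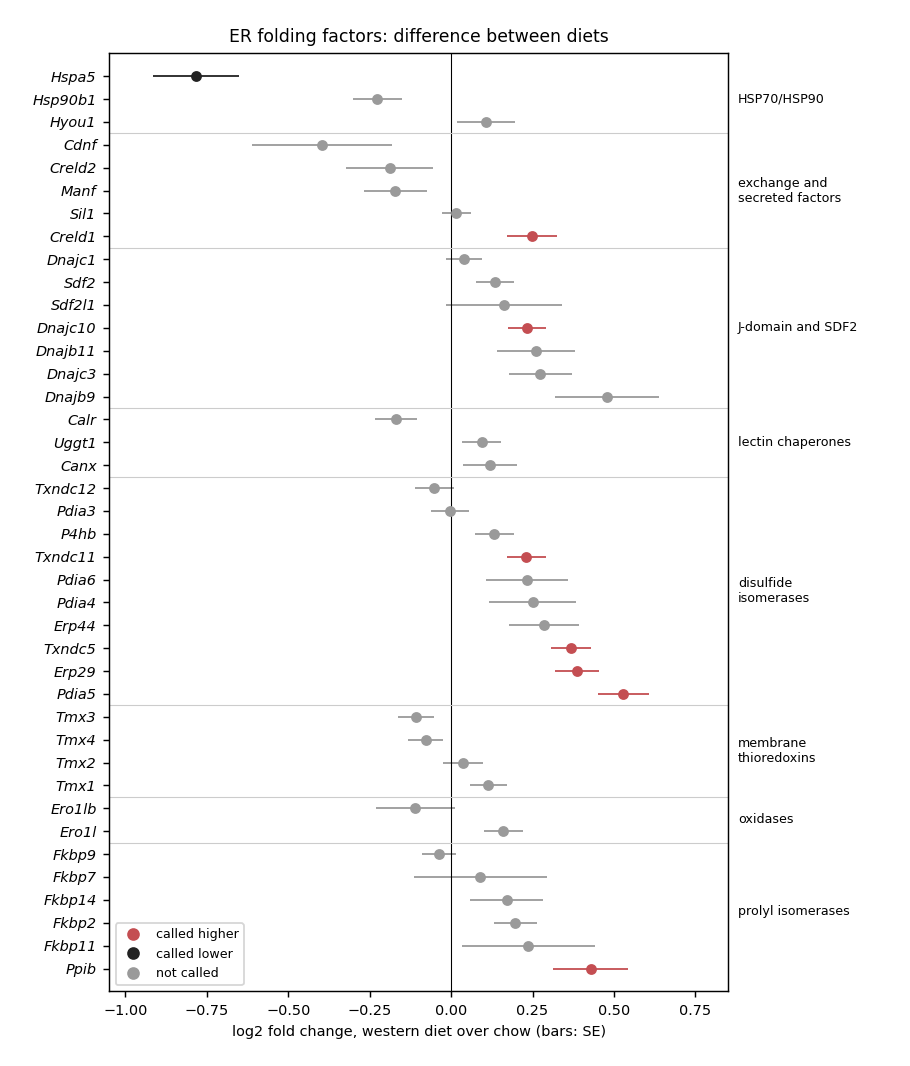
Log2 fold change, western diet over chow, of the 40 genes with SE as bars, grouped by role, with colour marking genes called higher, called lower or not called. Hspa5 stands alone at the left at -0.78, Pdia5 lies farthest right at 0.53, and 28 of the 40 lie above 0.

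The HSP70 and HSP90 class holds Hspa5, Hsp90b1 and Hyou1, and 1 of the 3 passed the test, lower on western diet. Hspa5 (ENSMUSG00000026864, chr2:34771970-34777547, plus strand) encodes BiP, the main HSP70 of the ER, which binds unfolded chains and keeps the stress sensors inactive. The values that follow are listed as mice 1, 2, 4 and 5 of cage 4 and then mouse 5 of cage 2 for western diet, and as mice 1 to 5 of cage 3 for chow. Hspa5 had 2811, 2634, 2599, 2535 and 1948 CPM on western diet, against 5215, 4886, 4192, 3604 and 3662 CPM on chow. All 5 western diet mice lay below all 5 chow mice, and the cage 2 mouse was the lowest. The log2 fold change was -0.78 ± 0.13 (SE, n = 5 per diet, edgeR adjusted p = 0.0073), and it ranged from -0.85 to -0.63 over the alternatives.

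Hsp90b1 (ENSMUSG00000020048, chr10:86690209-86705509, minus strand) encodes GRP94, the HSP90 of the ER, which folds a limited set of clients that includes insulin-like growth factors. It had 1164, 1103, 1113, 998 and 989 CPM on western diet, against 1355, 1342, 1383, 1162 and 1039 CPM on chow. The groups overlapped only through chow mice 4 and 5. The log2 fold change of -0.23 ± 0.08 missed the threshold (SE, n = 5 per diet, edgeR adjusted p = 0.066). The gene was called lower in 4 of the 20 alternatives, DESeq2 among them. Of its exon bases, 10.3% are shared with the opposite-strand pseudogene 1810014B01Rik, which fell by 1.41 on the log2 scale (edgeR adjusted p = 8.4e-04), at much lower levels, 9.59 ± 0.692 CPM on western diet and 25.6 ± 7.16 CPM on chow (SD, n = 5 each). How reads of the pair were divided was not tested.

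Hyou1 (ENSMUSG00000032115, chr9:44379490-44392369, plus strand) encodes GRP170, a large HSP70 relative that also exchanges nucleotide on BiP. It had 901, 867, 1002, 980.3 and 798 CPM on western diet, against 791, 1032, 854, 829 and 716 CPM on chow. Its groups overlapped, and the log2 fold change of 0.11 ± 0.09 did not pass the test (SE, n = 5 per diet, edgeR adjusted p = 0.48, interval of 2 SE from -0.07 to 0.29).

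BiP was the most abundant of the 40 messages per length under both diets. Scaled per kilobase of the deposited gene length, Hspa5 stood at 592 ± 77.6 CPM per kb on western diet and 1019.6 ± 171 CPM per kb on chow (SD, n = 5 each). The oxidase gene Ero1lb followed at 364 and 393 CPM per kb on western diet and chow, then P4hb at 362 and 329.7 and Pdia3 at 338 and 339. Of the summed CPM of the 40 genes, Hspa5 took 14.01% to 17.6% on western diet and 22.5% to 31.2% on chow, with no overlap. Without Hspa5, the other 39 summed to 12571 ± 532 CPM on western diet and 12336 ± 1397 CPM on chow (SD, n = 5 each).

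Immediate early genes and some heat shock genes fell as Hspa5 did. Hspa1a, the inducible HSP70 of the cytosol, had 53.6, 76.7, 46.6, 65.1 and 74.8 CPM on western diet, against 616, 611, 547, 398 and 459 CPM on chow. Jun, an immediate early transcription factor gene, had 1734, 1843, 1474, 1734 and 1498 CPM on western diet, against 3630.4, 3385, 3505, 3156 and 3097 CPM on chow. Neither gene's groups overlapped. Of 21 immediate early genes 17 fell and 0 rose, and of 20 cytosolic heat shock genes 6 fell and 4 rose (edgeR). The 4 that rose, named after their values were seen, were Ahsa1, Chordc1, Hspa4l and Stip1, which encode HSP70 and HSP90 relatives and co-chaperones. The part of these genes' difference in that of Hspa5 was not tested.

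**Figure D3:**
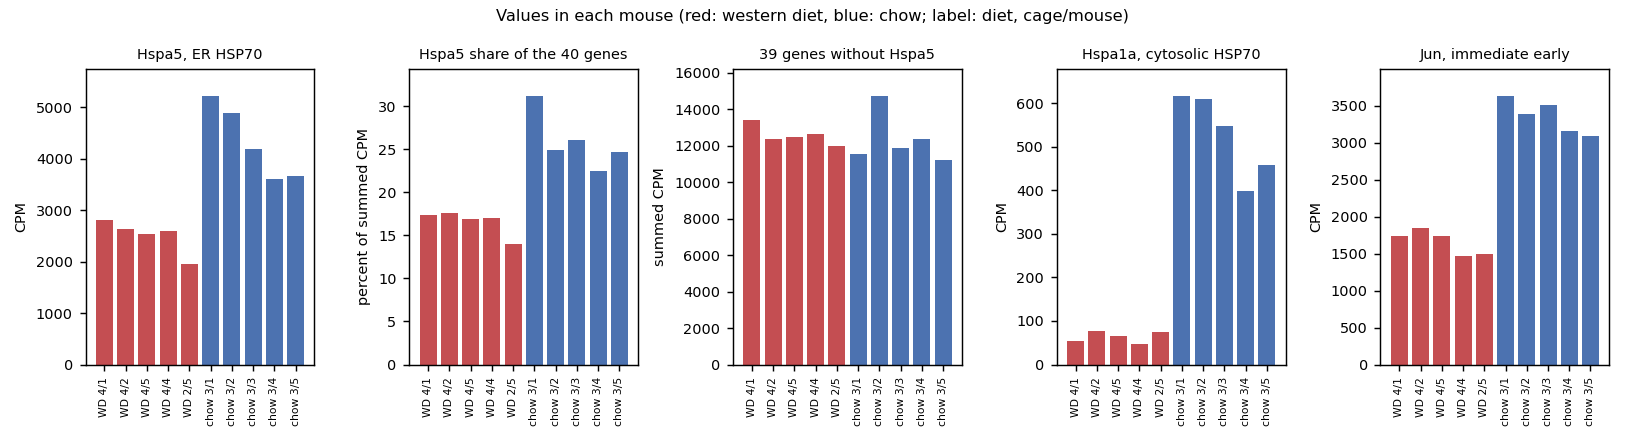
Values in each mouse for Hspa5 (CPM), its percent share of the summed CPM of the 40 genes, the summed CPM of the other 39 genes, and Hspa1a and Jun (CPM), with western diet in red and chow in blue. The Hspa5 share is 14.01% to 17.6% on western diet and 22.5% to 31.2% on chow, while the sum of the other 39 genes overlaps between the diets.

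Creld1, Creld2, Manf, Cdnf and Sil1 were grouped as nucleotide exchange factors of BiP, factors secreted under stress and their relatives. Of these 5 genes Creld1, placed here as a relative of Creld2, rose and none fell. Creld1, which encodes a membrane-anchored ER protein with epidermal growth factor-like domains, had 26.1 to 29.5 CPM on western diet and 19.4 to 25.7 CPM on chow. Its groups did not overlap, but the log2 fold change of 0.25 ± 0.08 lay close to the threshold (SE, n = 5 per diet, edgeR adjusted p = 0.045). Manf encodes a small protein that binds BiP, is secreted when ER calcium falls and supports beta cell survival in mice. It had 311, 276, 311, 293 and 241 CPM on western diet, against 325, 391, 333, 292 and 271 CPM on chow. The Manf groups overlapped (log2 fold change -0.17 ± 0.10, SE, n = 5 per diet, edgeR adjusted p = 0.29). Its relative Cdnf was the least abundant of the 40 per length, at 0.832 CPM per kb on western diet and 1.09 CPM per kb on chow. Without scaling to length it averaged 2.59 ± 0.524 CPM on western diet and 3.41 ± 0.927 CPM on chow (SD, n = 5 each), and did not pass the test. Creld2, a secreted relative of Creld1 induced by ER stress, ranged from 72.2 to 99.4 CPM on western diet and from 72.4 to 117 CPM on chow. Sil1, a nucleotide exchange factor of BiP, ranged from 64.9 to 68.6 CPM on western diet and from 63.5 to 67.1 CPM on chow, with a log2 fold change of 0.02 and an interval of 2 SE from -0.07 to 0.11.

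J-domain proteins stimulate the ATPase of BiP and bring it clients, and the SDF2 proteins work with Dnajb11. All 7 genes of this class had a fold change above 0, and 1 passed the test. Dnajc10, whose product ERdj5 is a J-domain disulfide reductase that helps misfolded proteins leave the ER, averaged 127 ± 10.4 CPM on western diet and 108 ± 4.99 CPM on chow (SD, n = 5 each). Its log2 fold change was 0.23 ± 0.06 (SE, n = 5 per diet, edgeR adjusted p = 0.015). Only mouse 1 of western diet cage 4, at 112 CPM, lay within the chow range of 102 to 116 CPM. Dnajb9 (ERdj4), which represses IRE1 through BiP, had the largest fold change of the class, 0.48 ± 0.16 on the log2 scale, but the groups overlapped at 385 to 599 CPM on western diet and 275 to 455 CPM on chow (SE, n = 5 per diet, edgeR adjusted p = 0.091).

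Dnajc3 (p58IPK), a BiP co-chaperone whose loss causes diabetes in mice, ranged from 463 to 589 CPM on western diet and from 365 to 539.8 CPM on chow. Dnajb11 (ERdj3), a soluble co-chaperone that binds unfolded chains, ranged from 91.3 to 130.4 CPM on western diet and from 81.1 to 119 CPM on chow. Neither passed the test. Sdf2l1 had 106, 95.5, 127, 112 and 86.4 CPM on western diet, against 85.8, 138, 78.6, 88.5 and 79.6 CPM on chow. Chow mouse 2 gave the highest Sdf2l1 value of all 10, and the other chow mice lay at or below 88.5 CPM. The log2 fold change of Sdf2l1 was 0.16 ± 0.18 (SE, n = 5 per diet, edgeR adjusted p = 0.61). Without chow mouse 2 edgeR called the gene higher, the only call in the 20 alternatives. Its constitutive relative Sdf2 ranged from 40.1 to 46.1 CPM on western diet and from 35.6 to 40.5 CPM on chow, and Dnajc1 (ERdj1), a membrane J-domain protein that binds ribosomes, from 72.9 to 79.6 CPM on western diet and from 68.4 to 83.9 CPM on chow.

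Calreticulin, calnexin and UGGT1 form the cycle that retains glycoproteins until they fold, and none of their 3 genes passed the test. Calr (ENSMUSG00000003814, chr8:84841850-84846934, minus strand), which encodes the soluble lectin and calcium store protein calreticulin, had 854, 818, 817, 822 and 813 CPM on western diet, against 957, 1087, 927, 888 and 782 CPM on chow. The western diet mice lay within a narrow band, with chow mouse 5 below it and the other chow mice above it. The log2 fold change was -0.17 ± 0.07 (SE, n = 5 per diet, edgeR adjusted p = 0.0997). Without chow mouse 5 edgeR called Calr lower, the only call in the 20 alternatives. Canx, the membrane-bound lectin calnexin, ranged from 577 to 696 CPM on western diet and from 501 to 691 CPM on chow. Uggt1, the glucosyltransferase that marks unfolded glycoproteins for another round, ranged from 355 to 369.9 CPM on western diet and from 301 to 395 CPM on chow.

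Of the 7 genes that rose, 4 belong to the protein disulfide isomerase family outside the TMX proteins. Of its 10 genes 4 rose, 0 fell and 8 had a fold change above 0, with a median log2 fold change of 0.24. Pdia5 (ENSMUSG00000022844, chr16:35397312-35490873, minus strand), a disulfide isomerase that in human cells helps activate ATF6 under stress, had 36.4, 34.0, 37.2, 37.0 and 34.0 CPM on western diet, against 20.0, 26.6, 27.9, 26.2 and 23.2 CPM on chow. All western diet mice lay above all chow mice. The log2 fold change was 0.53 ± 0.08 (SE, n = 5 per diet, edgeR adjusted p = 6.3e-04), or 1.44-fold.

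Txndc5 (ENSMUSG00000038991, chr13:38500079-38528824, minus strand), also called ERp46, is a disulfide isomerase with several thioredoxin domains. It had 210.0, 191, 204, 194 and 179 CPM on western diet, against 131, 170.0, 150.1, 155 and 153 CPM on chow. The groups did not overlap (log2 fold change 0.37 ± 0.06, SE, n = 5 per diet, edgeR adjusted p = 0.0016). Erp29 (ENSMUSG00000029616, chr5:121428590-121452506, minus strand) is a family member that lacks the redox-active cysteine pair and acts as an escort for secretory proteins. It had 70.3, 66.9, 75.2, 71.97 and 64.4 CPM on western diet, against 46.7, 62.0, 50.4, 55.6 and 52.0 CPM on chow. Again the groups did not overlap (log2 fold change 0.39 ± 0.07, SE, n = 5 per diet, edgeR adjusted p = 0.0020). Of the exon bases annotated for Erp29, 24.4% are shared with Naa25 on the opposite strand, whose own log2 fold change of 0.18 did not pass the test. Txndc11, a thioredoxin-domain ER protein that binds EDEM proteins of ER-associated degradation in human cells, ranged from 91.0 to 107 CPM on western diet and from 75.1 to 89.3 CPM on chow without overlap (log2 fold change 0.23 ± 0.06, SE, n = 5 per diet, edgeR adjusted p = 0.021).

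The most abundant isomerases per length, P4hb, Pdia3 and Pdia6, did not pass the test. P4hb (ENSMUSG00000025130, chr11:120560298-120573253, minus strand), the archetypal protein disulfide isomerase, had 1072, 1051, 1021, 1012 and 1015 CPM on western diet, against 851, 1109, 869, 974 and 914 CPM on chow. Chow mouse 2 lay above all western diet mice and the other chow mice lay below them. The log2 fold change of P4hb was 0.13 ± 0.06 (SE, n = 5 per diet, edgeR adjusted p = 0.17). Pdia6 (ENSMUSG00000020571, chr12:17266545-17284770, plus strand), a BiP-associated isomerase that acts on the sensor IRE1, had 513, 492, 514, 526 and 466 CPM on western diet, against 348, 581, 374, 447 and 388 CPM on chow. It showed the same arrangement, with chow mouse 2 on top and the other chow mice below every western diet mouse (log2 fold change 0.23 ± 0.13, SE, n = 5 per diet, edgeR adjusted p = 0.28). Without chow mouse 2, edgeR called both P4hb and Pdia6 higher. For each of them this was the only 1 of the 20 alternatives with a call.

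Pdia3 (ERp57), the isomerase that works with calnexin and calreticulin, averaged 1061 ± 50.2 CPM on western diet and 1065 ± 101 CPM on chow (SD, n = 5 each), and the interval of 2 SE of its log2 fold change ran from -0.12 to 0.11. Pdia4 (ERp72), a large isomerase with 3 active thioredoxin domains, ranged from 153 to 231 CPM on western diet and from 154 to 218 CPM on chow. Erp44, which retains the oxidases in the early secretory pathway, ranged from 101 to 131 CPM on western diet and from 77.5 to 119.8 CPM on chow. Txndc12 (ERp18), a small thioredoxin-like protein, ranged from 41.2 to 48.0 CPM on western diet and from 42.1 to 48.6 CPM on chow. None of these 4 passed the test.

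**Figure D4:**
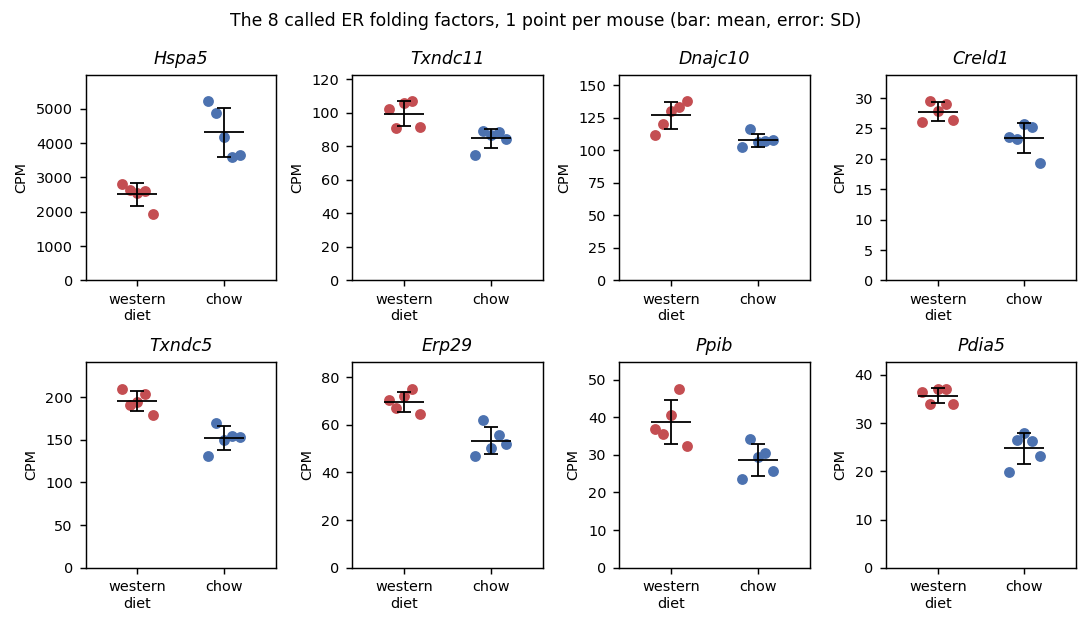
CPM of the 8 called genes, 1 point per mouse, western diet left and chow right, with the mean as a bar and the SD as its error; every axis starts at 0. Hspa5 is lower on western diet at 1948 to 2811 CPM, against 3604 to 5215 CPM on chow, and Pdia5 is higher at 34.0 to 37.2 CPM, against 20.0 to 27.9 CPM on chow; Ppib and Dnajc10 overlap between the diets.

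The TMX proteins are thioredoxin-like isomerases held in the ER membrane, and none of the 4 genes passed the test. Tmx1, which acts on membrane-bound clients, ranged from 105 to 126 CPM on western diet and from 102 to 112 CPM on chow. Tmx2 ranged from 38.4 to 47.7 CPM on western diet and from 40.9 to 45.8 CPM on chow. Tmx3 ranged from 62.2 to 74.2 CPM on western diet and from 67.9 to 77.2 CPM on chow, and Tmx4 from 163 to 187 CPM on western diet and from 169.8 to 190.2 CPM on chow. Their log2 fold changes lay between -0.11 and 0.11.

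The ERO1 oxidases pass electrons from disulfide isomerases to oxygen and so supply the disulfide bonds of the lumen. Ero1lb (ENSMUSG00000057069, chr13:12565874-12611396, plus strand) encodes ERO1 beta, the form enriched in the pancreas and known to support insulin biogenesis in mice, and was among the most abundant of the 40 genes. It had 2846, 2201, 2209.9, 2299.8 and 2556 CPM on western diet, against 2299.7, 3386, 2375, 2736 and 2277 CPM on chow. The groups overlapped (log2 fold change -0.11 ± 0.12, SE, n = 5 per diet, edgeR adjusted p = 0.61), and without chow mouse 2 the sign changed, to 0.0012. Ero1l (ENSMUSG00000021831, chr14:45283087-45318771, minus strand) encodes the widely expressed ERO1 alpha, which hypoxia induces. It had 76.9, 74.7, 73.2, 78.9 and 73.1 CPM on western diet, against 58.8, 72.7, 62.8, 71.4 and 71.4 CPM on chow. All western diet mice lay above all chow mice, by as little as 73.1 against 72.7 CPM, and the log2 fold change of 0.16 ± 0.06 did not pass the test (SE, n = 5 per diet, edgeR adjusted p = 0.091). Per kilobase, Ero1lb stood at 364 CPM on western diet and 393 CPM on chow, and Ero1l at 14.3 CPM on western diet and 12.8 CPM on chow.

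Prolyl isomerases speed the turning of proline peptide bonds, and 1 of 6 rose. Ppib (ENSMUSG00000032383, chr9:66060222-66066623, plus strand) encodes cyclophilin B, which acts on collagen and other secretory proteins and is found in complexes with BiP. It had 36.9, 35.4, 47.6, 40.7 and 32.4 CPM on western diet, against 23.4, 34.2, 29.3, 30.6 and 25.7 CPM on chow. The groups overlapped through the western diet mouse of cage 2 and chow mouse 2 (log2 fold change 0.43 ± 0.11, SE, n = 5 per diet, edgeR adjusted p = 0.032). Of the Ppib exon bases 25.0% are shared with Snx22 on the opposite strand, which did not pass the filter on low counts.

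The other prolyl isomerases belong to the FK506-binding family. Fkbp2, a small luminal form, ranged from 69.4 to 85.8 CPM on western diet and from 63.0 to 76.9 CPM on chow (edgeR adjusted p = 0.058, n = 5 per diet). Fkbp11, a membrane-anchored form of secretory cells, ranged from 28.9 to 36.7 CPM on western diet and from 20.9 to 44.5 CPM on chow, where the highest was mouse 2. Fkbp14, which acts on collagen, ranged from 12.4 to 19.2 CPM on western diet and from 12.7 to 16.3 CPM on chow. Fkbp9 ranged from 306 to 364 CPM on western diet and from 334 to 365 CPM on chow, and Fkbp7 from 1.70 to 2.58 CPM on western diet and from 1.69 to 2.63 CPM on chow.

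In 27 of the 40 genes (67.5%) the coefficient of variation was larger among chow mice than among western diet mice, against 7545 of the 15104 genes tested. The median coefficient of variation of the 40 genes was 7.83% on western diet and 11.5% on chow, and 7.51% on chow without mouse 2; over all genes tested it was 10.1%, 10.3% and 9.92%. Chow mouse 2 was the highest of its group in 29 of the 40 genes (72.5%), against 22.1% of all genes. Its level over the mean of the other chow mice was 1.83 for Fkbp11, 1.66 for Sdf2l1, 1.49 for Pdia6 and 1.40 for Ero1lb. Chow mouse 1, which had the highest Hspa5 value of all 10 mice, was the lowest chow mouse in 22 of the 40 genes (55%, against 24.4% of all genes). The western diet mouse of cage 2 was the lowest of its group in 20 (50%, against 22.1%).

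**Figure D5:**
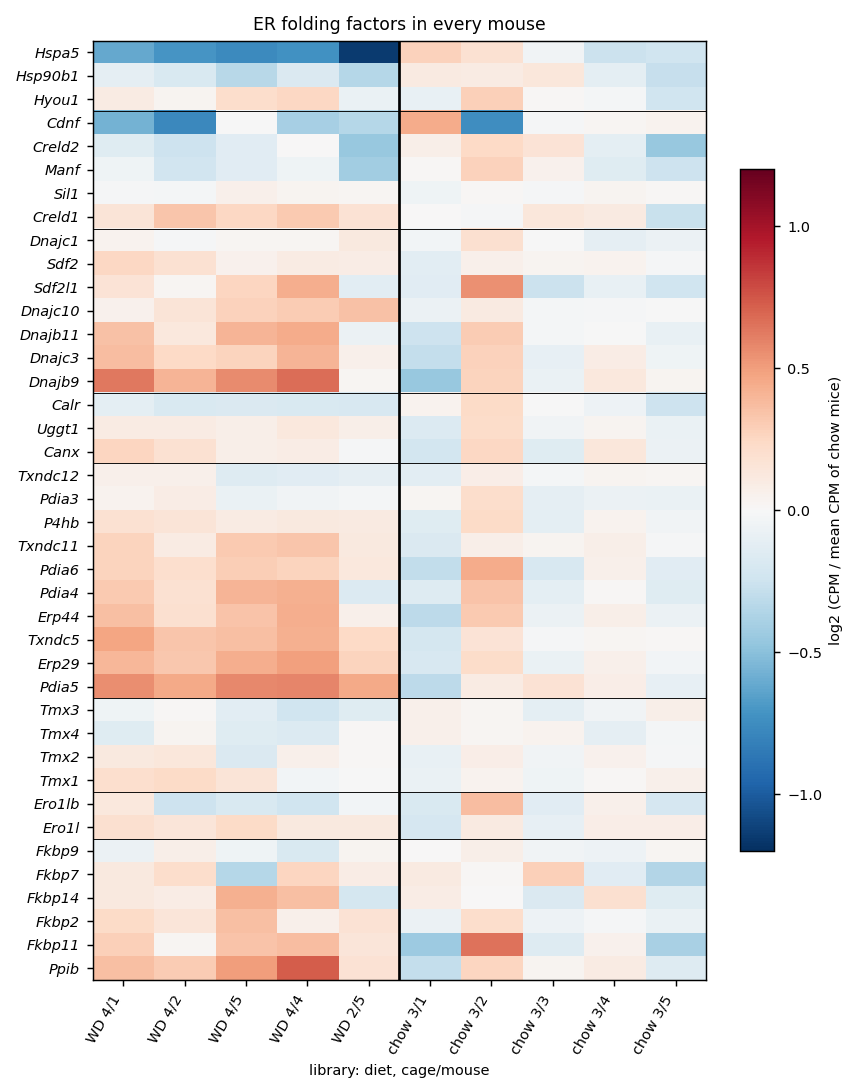
Heat map of the 40 genes (rows, grouped by role) in each of the 10 mice (columns, western diet left of the line, chow right), as log2 of CPM over the mean CPM of the chow mice. Hspa5 has the lowest value in each western diet mouse except mouse 2 of cage 4, where Cdnf is lower. Hsp90b1, Calr, Manf and Cdnf also lie below the chow mean in all 5 western diet mice. Chow mouse 2 is the highest chow mouse in 29 of the 40 rows.

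Split by promoter motif, the 9 genes with an ERSE or ERSE-II held 0 higher and 1 lower (Hspa5), with a median log2 fold change of -0.11 and a range from -0.78 to 0.27. The 26 genes with a window but neither motif held 6 higher and 0 lower, with a median of 0.16 and a range from -0.40 to 0.53. These are counts with no test. Among the 8 genes with an ERSE, Dnajc3, Pdia6 and Canx had fold changes above 0, and Hspa5, Hsp90b1, Creld2, Calr and Ero1lb below 0. The 11 tested genes outside the 40 whose windows hold an ERSE had 1 higher and 0 lower, with a median log2 fold change of -0.09.

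Other genes of the same machinery were read from lists. Of 35 tested ER folding factors outside the 40, 4 rose and 0 fell, with a median log2 fold change of 0.08. They were Mogs and Ganab, glucosidases that trim glycans, Vkorc1l1, an ER reductase of the vitamin K cycle, and P3h1, a collagen prolyl hydroxylase, at 0.40, 0.18, 0.28 and 0.34 on the log2 scale. Of the 3 KDEL receptors, which return escaped chaperones from the Golgi, Kdelr2 and Kdelr1 rose by 0.33 ± 0.06 and 0.23 ± 0.05 (log2, SE, n = 5 per diet, edgeR adjusted p = 0.0031 and 0.0091). Of 22 translocon and signal peptidase genes 9 rose and 0 fell, among them Sec62, Spcs3, Sec63 and Srprb. Of 23 genes listed for ER-associated degradation 6 rose, among them Edem3, Stt3b, Fam8a1 and Ubxn4, and 0 passed the test as lower. Herpud1, a stress-induced membrane component of that machinery, had the largest fold change of the list, -0.57 ± 0.16 on the log2 scale, and narrowly missed the threshold (SE, n = 5 per diet, edgeR adjusted p = 0.051). It averaged 473 ± 51.3 CPM on western diet and 701 ± 159.6 CPM on chow (SD, n = 5 each), was lower in every western diet mouse than in any chow mouse, and was named after its values were seen.

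Among 20 sensors and regulators of the unfolded protein response 3 rose and 2 fell. Eif2ak3, which encodes the sensor PERK, rose by 0.39 ± 0.09 and Creb3 by 0.23 ± 0.07 (log2, SE, n = 5 per diet, edgeR adjusted p = 0.015 and 0.040). The third, named after its values were seen, was Atf6b, a relative of ATF6, at 0.32. Ddit3, the transcription factor CHOP of the stress response, fell to 45.7 ± 6.96 CPM on western diet, against 117 ± 36.9 CPM on chow (SD, n = 5 each). Ppp1r15a (GADD34), a phosphatase subunit that restores translation, fell to 219.9 ± 22.5 CPM on western diet, against 302 ± 13.6 CPM on chow (SD, n = 5 each). Both were lower in every western diet mouse than in any chow mouse, as Hspa5 was.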

How the data were processed

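Islet RNA of 5 western diet and 5 chow mice was sequenced from NEBNext Ultra libraries, per the labels' protocols. The authors deposited 1 table of 27665 genes with whole-number read counts per gene, not normalized, per the file headers. The table also holds the authors' log2 fold changes and p-values for western diet over chow and a gene length in bases, per the file headers. STAR 2.5, HTSeq 2, DESeq2 and the builds mm10 and GRCm38 are named per the submitters' processing notes. The sources used here do not state whether counting used the strand, so reads of overlapping genes on opposite strands cannot be told apart. A further 20 per-sample columns of normalized values and FPKM were not used.

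The counts were tested with edgeR 4.0.16 (R 4.3.3, limma 3.58.1) after filterByExpr with a minimum count of 10 and TMM scaling, by a robust quasi-likelihood fit with no covariate. P-values were adjusted by Benjamini-Hochberg over 15104 genes, with 0.05 as the threshold for a call. The SE of a log2 fold change was taken as its size over the square root of F. CPM are counts scaled with the TMM factors, and CPM per kb divides them by the deposited gene length. P-values measure the spread between mice. The fit was tested on simulated data. Overlaps of exons come from GENCODE M21 (40 of 40 genes found), and promoter sequences from RefSeq (GRCm38.p6).

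The genes and lists were chosen with earlier results of these data known. Values in every mouse are given for called genes with an absolute log2 fold change of at least 0.3. They are also given for Hspa5, Hsp90b1, Calr, P4hb, Pdia6, Hyou1, Sdf2l1, Manf and the Ero1 genes. Up to 4 genes with the smallest p-values are named from the beta cell, ER and unfolded protein response lists. From the other lists only some genes or none are named. Alternatives were limma-voom, DESeq2 1.42.0, a fit without robust moderation, RLE or upper quartile factors, a filter at 5 CPM or none, a covariate for acinar markers, a block for mouse number, and the omission of each mouse.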

Additional observations from a re-analysis of the deposited data

Results flagged for a closer look

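Each of the 40 genes was checked within each diet for a mouse standing far from the other 4, by Dixon's gap test at its 95% critical value, which made 80 groups. A mouse stood apart in 3 of the 80 (3.75%), and chance alone marks about 1 in 20 groups. Sdf2l1 was at 138 CPM in chow mouse 2, and the next chow mouse was at 88.5 CPM. Fkbp2 was at 76.9 CPM in the same mouse, with the next at 66.1 CPM. Calr was at 854 CPM in mouse 1 of western diet cage 4, with the next western diet mouse at 822 CPM.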

How the results depend on the processing

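Over the 40 genes and 20 alternatives, 740 log2 fold changes kept their direction and side of the threshold, 27 passed it newly, 23 no longer passed it and 8 changed sign. All 8 belonged to genes not called, and the cause of these changes was not tested. Sil1 (0.02) was at -0.00069 with a filter at 5 CPM and between -0.0034 and 0.026 with each mouse left out, Pdia3 (-0.0043) between -0.037 and 0.055, and Ero1lb (-0.11) between -0.17 and 0.0012. With western diet cage 2 mouse 5 and chow mouse 1 both left out, a choice made after seeing the data, Sil1 was at -0.00086 and Pdia3 at 0.0052, with 7 genes higher and 1 lower. Leaving out each mouse gave 3 to 15 of the 40 higher and 1 to 3 lower, 6 to 13 without overlap higher and 1 to 2 lower, and over all genes 938 to 1813 called, 376 to 921 higher and 562 to 892 lower. The 40 held 2 lower genes, Hsp90b1 and Hspa5, with DESeq2 and with the filter at 5 CPM; the higher genes numbered 10 with DESeq2 and with acinar markers as a covariate. Mouse numbers are given within cages, and same-numbered mice did not deviate together (correlations from -0.129 to 0.0483), so the numbers do not pair the mice. With mouse number as a replicate block, 841 genes were called against 1627, 342 higher and 499 lower, and of the 40, 5 were higher and 1 lower. Counts of 28 to 55 reads per library for Fkbp7 and 35 to 88 for Cdnf limit what could be seen in these genes.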
